A study of Mus musculus with 4 samples.

Results

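The 7 genes described here move lactate, pyruvate and glucose across the plasma membrane or escort the proteins that do. Slc16a1, Slc16a3 and Slc16a7 code for monocarboxylate carriers (MCT1, MCT4 and MCT2), Slc2a1 and Slc2a3 for glucose carriers (GLUT1 and GLUT3), and Bsg and Emb for the chaperones basigin and embigin. They were taken by symbol from a table of 24388 gene symbols, by a rule that names the genes and sets no threshold on their values, and all 7 were found.

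Spermatocytes sit behind the blood-testis barrier and depend on Sertoli cells for fuel. Sertoli cells take up glucose, break it down by glycolysis and export lactate, which germ cells import and oxidise through pyruvate. Monocarboxylate carriers move lactate together with a proton, down the combined gradient, and most of them reach the cell surface only when bound to a single-pass immunoglobulin-like chaperone, basigin or embigin.

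Poly(A) RNA was sequenced from spermatocyte suspensions of C57BL/6 mice, in 2 libraries of an Np95 knockout and 2 control libraries. Np95 (Uhrf1) brings the maintenance DNA methyltransferase to replicated DNA, and the study asked how maintenance methylation before meiosis bears on meiotic prophase. Testes of all 4 libraries carry the same age label, 21 dpc, an abbreviation the labels do not spell out. The knockout columns are headed cKO in the file, while neither the allele nor any Cre driver is given in the sources used here. No sorting step is described for the suspensions, which were made by enzyme digestion and a mesh. The labels do not tie replicates to separate animals, and p-values therefore reflect only library-to-library spread, which can be technical.

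Steps between low values correspond to about 11120000 and 4810000 read pairs in knockout replicates 1 and 2, against 5820000 and 12800000 in control replicates 1 and 2. Uhrf1 read 1.87 and 1.48 RPKM (reads per kilobase, scaled to library size) in the knockout libraries, against 3.11 and 3.29 RPKM in the control libraries, a log2 difference of -0.65 (limma adjusted p = 0.0031, SE 0.10). The labels do not say which part of the gene is deleted, so this value does not give its loss. As a measure of spermatocytes, 11 pachytene markers were summed. Their RPKM came to 587 and 462 in the knockout libraries and 1279 and 1256 in the control libraries. Hspa2 made up most of each sum, with 415 and 348 in the knockout and 693 and 682 in the control. Over the 10 markers tested the median log2 fold change was -1.63. Expression differed over most genes tested, and over all of them the log2 fold change had a median of 0.14. For 89.9% of tested genes the values of both groups did not overlap, which is the background against which the members are read. The authors divided by the whole gene span, introns included, so genes with long introns read low in RPKM. For comparisons between genes, each value was therefore also rescaled to exon length, and that quantity is called the exon-scaled level. It takes every counted read as exonic, which is not known here. Any intronic reads that were counted would be scaled up too, among the members most for Slc16a7, by 41.8-fold.

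As deposited, members moved in both directions in the knockout, as did tested genes as a whole. Slc16a1 was 3.04-fold and Slc16a3 1.51-fold higher, Slc2a3 was 2.72-fold and Bsg 1.68-fold lower, and Emb did not pass the test. Thus 2 of the 5 members tested rose and 2 fell, against 43.3% of all tested genes called higher and 30.5% called lower. Slc16a7 and Slc2a1 stayed below 1 RPKM in every library and so were not tested as deposited. On the exon-scaled level all 7 were tested, of which 3 rose and 3 fell, against a background of 50.8% and 25.0%. In a bulk suspension, fewer cells of a type and less RNA per cell cannot be told apart. None of the 7 members had overlapping groups as deposited, as for 89.9% of tested genes, a share that leaves out Slc16a7 and Slc2a1.

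**Figure D1:**
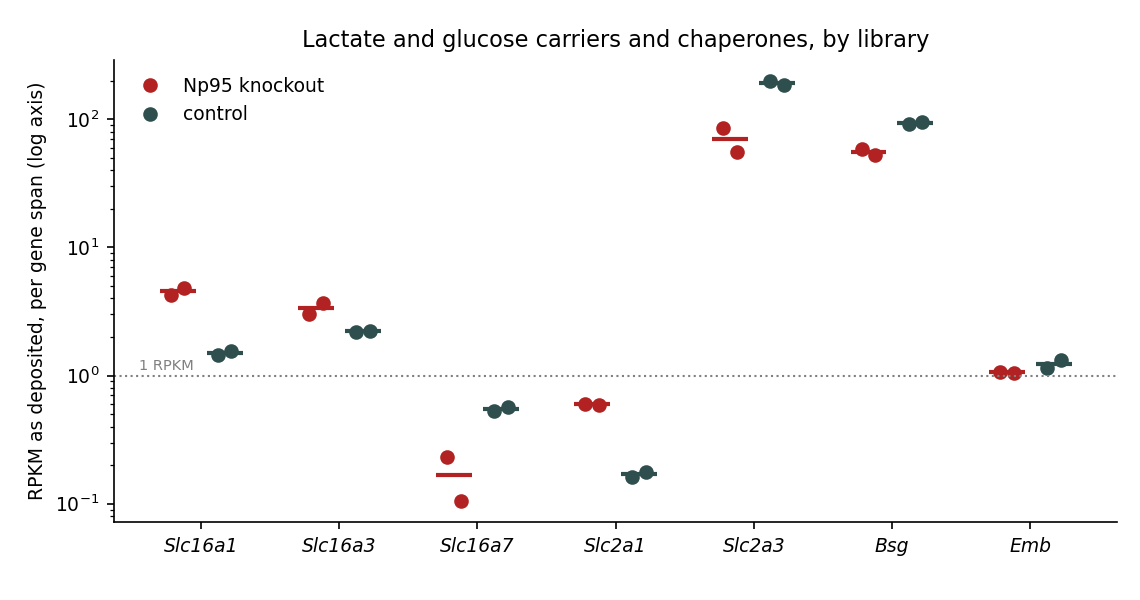
RPKM as deposited (log axis) of the 7 genes in the 2 Np95 knockout libraries (red) and the 2 control libraries (dark), with a bar at each group mean and a dotted line at 1 RPKM. Slc16a1, Slc16a3 and Slc2a1 lie higher and Slc16a7, Slc2a3 and Bsg lower in the knockout, and Slc16a7 and Slc2a1 lie below 1 RPKM throughout.

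Slc16a1 codes for MCT1, the widely expressed carrier that works in either direction. It read 4.26 and 4.85 RPKM in the knockout libraries, against 1.44 and 1.56 RPKM in the control libraries. Both knockout libraries lay above both control libraries, by more than the spread within either group. The log2 fold change was 1.15 (95% interval 0.92 to 1.38, limma adjusted p = 0.0014), and 7.3% of tested genes had a higher one. These values rest on roughly 937 and 461 read pairs in the knockout libraries and 166 and 394 in the control libraries.

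Slc16a3 codes for MCT4, the low-affinity carrier typical of glycolytic cells that export lactate. It read 3.02 and 3.66 RPKM in the knockout libraries, against 2.20 and 2.22 RPKM in the control libraries. The groups did not overlap, but the gap was small. The log2 fold change was 0.43 (95% interval 0.18 to 0.68, limma adjusted p = 0.012), and 34.8% of tested genes had a higher one. The call ended without control replicate 1 (adjusted p = 0.072), without control replicate 2 (0.066), with libraries centred on an equal median (0.067), with quantile normalization (0.081) and without the filter on low values (0.055). The gene table places Csnk1d, a casein kinase gene, over part of the Slc16a3 span, and the library kit does not mark strand, so reads from the overlap cannot be told apart. Csnk1d itself read 6.56 and 7.55 RPKM in the knockout libraries and 5.28 and 5.36 RPKM in the control libraries. On the exon-scaled level the log2 fold change of Slc16a3 was 0.519 (95% interval 0.174 to 0.865). That interval spanned the median of all genes tested on that level, 0.38, and 44.3% of them had a higher fold change.

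Slc16a7 codes for MCT2, the high-affinity carrier suited to lactate import, known from the sperm tail. It read 0.233 and 0.105 RPKM in the knockout libraries, against 0.532 and 0.572 RPKM in the control libraries. Both knockout libraries lay below both controls and differed from each other more than the controls did, and mean RPKM was 3.27-fold lower. Its exons make up 2419 bases of a span of 101051 bases, which is why so few RPKM correspond to about 262 and 51 read pairs in the knockout and 313 and 739 in the control. On the exon-scaled level it read 9.72 and 4.39 in the knockout libraries and 22.2 and 23.9 in the control libraries. The exon-scaled log2 fold change was -1.66 (95% interval -2.33 to -0.99, limma adjusted p = 0.0013), and 3.1% of the genes tested on that level had a lower one.

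Set side by side per exon length, the monocarboxylate carriers changed order between the groups. In the knockout Slc16a1 led, with 20.4 ± 1.88 against 9.54 ± 1.30 for Slc16a3 and 7.06 ± 3.77 for Slc16a7 (exon-scaled level, SD, n = 2). In the knockout the values of Slc16a3 and Slc16a7 overlapped, so their order there does not hold up against the spread. In the control Slc16a7 led with 23.1 ± 1.16, while Slc16a1 at 6.69 ± 0.375 and Slc16a3 at 6.33 ± 0.0466 lay close together. Slc16a7 made up 26.0% and 12.0% of the summed exon-scaled level of the trio in the knockout libraries, against 63.6% and 64.2% in the control libraries. Slc16a1 made up 50.9% and 59.4% in the knockout libraries and 18.4% and 18.7% in the control libraries. The sum of the trio was 37.4 and 36.5 in the knockout libraries and 34.9 and 37.2 in the control libraries, and the groups overlapped. These levels depend on the lengths taken and on all counted reads being exonic. With the gene-table spans, 170317 bases for Slc16a7, that gene would average 11.9 in the knockout and 38.9 in the control, and the sum of the trio would be 42.7 and 38.0 in the knockout libraries and 49.2 and 52.6 in the control libraries. With the shortest exon length of Slc16a3, 2272 in place of 4335 bases, Slc16a3 would average 18.2 ± 2.49 in the knockout and 12.1 ± 0.0890 in the control (SD, n = 2). It would then overlap Slc16a1 and lie above Slc16a7 in the knockout and above Slc16a1 in the control, with sums of 45.2 and 46.0 in the knockout and 40.7 and 43.0 in the control. Under either length Slc16a1 stayed highest in both knockout libraries and Slc16a7 in both control libraries, while the overlap of the sums was lost. These shares and sums are descriptions and were not tested. An exact permutation test of 2 libraries against 2 cannot go below p = 0.33.

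**Figure D2:**
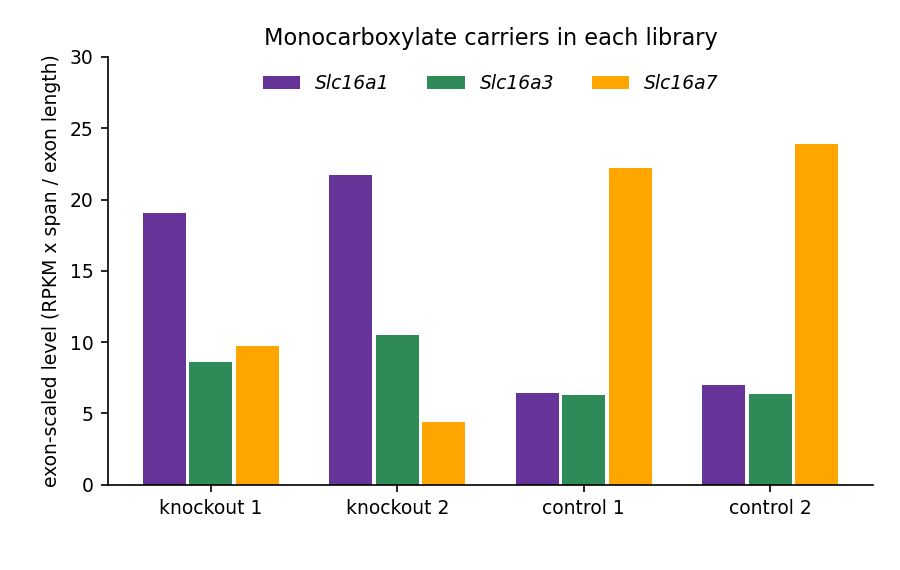
Exon-scaled level (RPKM times gene span over exon length) of the 3 monocarboxylate carriers in each library. Slc16a1 is the tallest bar in both knockout libraries and Slc16a7 in both control libraries.

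Promoter sequence is shown for the 4 members with an entry among the RefSeq promoter windows used here (build GRCm38.p6). Of these, Slc16a1, Slc16a3 and Slc2a1 rose on the exon-scaled level while Emb was not called. The rise of Slc16a3 had an interval that spanned the median of all genes. CpG content is given because maintenance methylation acts on CpG dinucleotides. Each run holds the 250 bases before the annotated start on the plus strand, 5′ to 3′, at chr3:104638414-104638663 for Slc16a1, chr11:120948817-120949066 for Slc16a3, chr4:119108495-119108744 for Slc2a1 and chr13:117220323-117220572 for Emb. Capitals mark ACGTG, a form of the core of the response element of the hypoxia-inducible factors, searched on both strands. Other forms of that core were not searched.
Slc16a1: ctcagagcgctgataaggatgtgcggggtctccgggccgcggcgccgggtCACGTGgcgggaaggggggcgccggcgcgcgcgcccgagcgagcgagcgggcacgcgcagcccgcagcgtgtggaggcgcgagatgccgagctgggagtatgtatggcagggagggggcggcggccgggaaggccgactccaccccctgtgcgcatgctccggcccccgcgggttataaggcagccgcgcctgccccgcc
Slc16a3: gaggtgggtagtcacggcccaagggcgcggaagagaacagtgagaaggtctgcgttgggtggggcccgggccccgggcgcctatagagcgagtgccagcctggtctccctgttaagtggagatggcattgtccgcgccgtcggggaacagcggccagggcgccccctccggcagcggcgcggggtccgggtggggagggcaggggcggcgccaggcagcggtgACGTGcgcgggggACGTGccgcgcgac
Slc2a1: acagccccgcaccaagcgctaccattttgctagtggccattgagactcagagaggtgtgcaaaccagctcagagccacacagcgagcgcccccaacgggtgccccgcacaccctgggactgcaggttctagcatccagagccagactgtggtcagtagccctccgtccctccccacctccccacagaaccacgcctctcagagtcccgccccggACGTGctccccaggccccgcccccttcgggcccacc
Emb: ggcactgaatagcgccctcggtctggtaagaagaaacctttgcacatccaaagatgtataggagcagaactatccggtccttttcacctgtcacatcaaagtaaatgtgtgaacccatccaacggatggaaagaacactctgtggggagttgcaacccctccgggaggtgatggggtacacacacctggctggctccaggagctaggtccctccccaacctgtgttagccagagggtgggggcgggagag

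These windows differed in CpG content. Slc16a1 held 37 CpG and Slc16a3 held 29, more than 97.8% and 93.2% of the 32536 promoter windows of that length. Slc2a1 held 13 and Emb held 6, against a median of 6 over all windows. The motif stood at 200 bases before the start of Slc16a1, where it forms the palindrome CACGTG, also known as an E-box. It stood at 27 and 14 bases before the start of Slc16a3 and 36 bases before that of Slc2a1. No match lay in the Emb window, and 16.7% of all windows held the motif. The motif itself holds a CpG, and that share was not matched for CpG content. Slc16a7, Slc2a3 and Bsg, the members that fell on the exon-scaled level, had no window, so members that rose cannot be compared with them. A match is a description of letters, and no binding or methylation was measured in these libraries.

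Slc2a1 codes for GLUT1, the basal glucose carrier, which in the testis is known from Sertoli cells and endothelium. It read 0.603 and 0.594 RPKM in the knockout libraries, against 0.163 and 0.176 RPKM in the control libraries, 3.53-fold higher by mean RPKM. The groups lay far apart and each was tight. The exon-scaled level was 5.42 and 5.33 in the knockout libraries and 1.46 and 1.58 in the control libraries, with a log2 fold change of 1.34 (95% interval 0.97 to 1.70, limma adjusted p = 0.00026). About 196 and 84 read pairs stand behind the knockout values, against 28 and 66 behind the control values. The summed exon-scaled level of 7 endothelial markers was 3.86 and 4.57 in the knockout libraries, against 1.47 and 1.71 in the control libraries, and its part in the difference of Slc2a1 was not tested.

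Slc2a3 codes for GLUT3, a high-affinity glucose carrier of neurons and of germ cells. It read 85.7 and 55.1 RPKM in the knockout libraries, against 198 and 185 RPKM in the control libraries. Both knockout libraries lay below both controls, with knockout replicate 2 the lowest. The log2 fold change was -1.46 (95% interval -2.06 to -0.87, limma adjusted p = 0.0036), and 3.7% of tested genes had a lower one. With quantile normalization the difference shrank to -0.55 and was no longer called (adjusted p = 0.069). Despite its fall Slc2a3 stayed the more abundant glucose carrier. Per exon length it exceeded Slc2a1 59.7-fold and 39.0-fold in the knockout libraries, against 512-fold and 442-fold in the control libraries. Those ratios take the span of the RefSeq-matched transcript, 14937 bases, while the gene table gives 74555 bases, which would raise every level of Slc2a3.

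**Figure D3:**
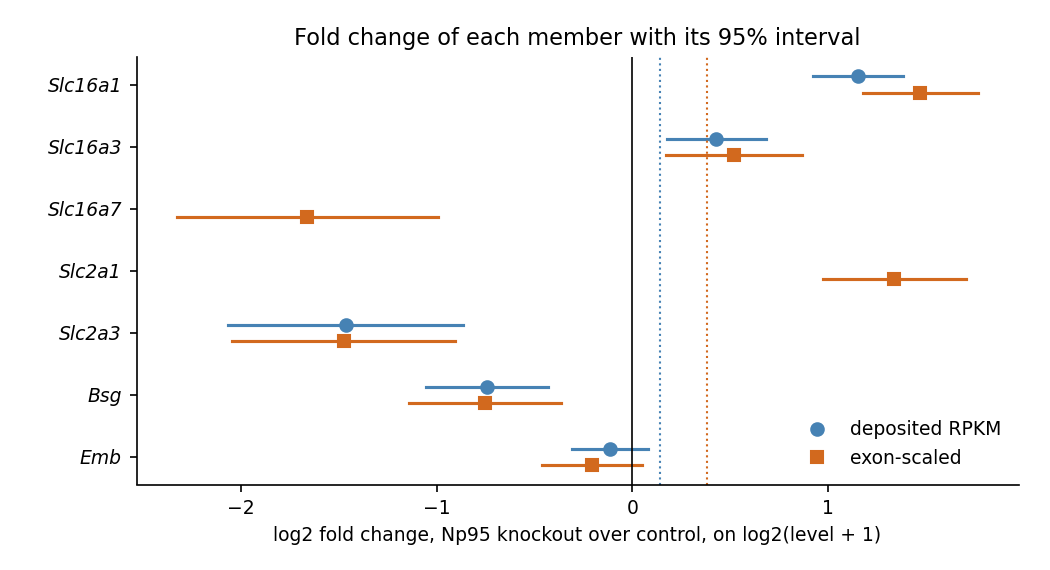
Log2 fold change of knockout over control for each member on log2(level + 1), from deposited RPKM (circles, 5 members tested) and from exon-scaled levels (squares, all 7), with 95% intervals from limma and dotted lines at the medians of all genes tested (0.14 and 0.38). The intervals of Slc16a1 and Slc2a1 lie wholly above both medians, and those of Slc16a7, Slc2a3 and Bsg below 0.

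Bsg codes for basigin, the chaperone of MCT1 and MCT4, which male mice need for spermatogenesis. It read 58.8 and 52.5 RPKM in the knockout libraries, against 91.8 and 95.6 RPKM in the control libraries. The groups did not overlap, and the log2 fold change was -0.74 (95% interval -1.06 to -0.43, limma adjusted p = 0.0038). This call depended on the scaling, since quantile normalization gave 0.03 (adjusted p = 0.77), an equal RPKM sum -0.33 (adjusted p = 0.031) and exon length with an equal sum -0.48 (adjusted p = 0.015). Among genes at 5 RPKM or more, where Bsg and Slc2a3 belong, the median log2 fold change was -0.22.

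Emb codes for embigin, a relative of basigin that is the preferred partner of MCT2 in the rat. It read 1.06 and 1.05 RPKM in the knockout libraries, against 1.15 and 1.31 RPKM in the control libraries. The values did not overlap, but the log2 fold change of -0.12 had an interval from -0.31 to 0.08 and was not called (limma adjusted p = 0.22). Its direction depended on the scaling, with 0.11 when libraries were scaled to an equal RPKM sum (adjusted p = 0.27), and with calls of lower when centred on an equal median (-0.31, adjusted p = 0.014) or quantile normalized (-0.43, adjusted p = 0.0060). Per exon length Bsg exceeded Emb 14.6-fold and 13.2-fold in the knockout libraries and 21.1-fold and 19.3-fold in the control libraries. Nptn, the remaining relative of the chaperones, rose to 1.07 and 1.30 RPKM in the knockout libraries, against 0.321 and 0.360 RPKM in the control libraries (log2 fold change 0.70, limma adjusted p = 0.0018), and passed the filter through the knockout libraries alone.

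Ordered by exon-scaled level, the members fell in a similar sequence in both groups apart from the monocarboxylate carriers. In the knockout Bsg at 272.7 ± 22.1 and Slc2a3 at 266 ± 81.7 overlapped at the top, followed by Slc16a1 at 20.4 ± 1.88 and Emb at 19.6 ± 0.168, whose values overlapped too. Below them came Slc16a3, Slc16a7 and Slc2a1, the last at 5.38 ± 0.0617. Slc16a7, at 9.72 and 4.39, overlapped both Slc16a3 and Slc2a1, the latter at 5.42 and 5.33, so its place there is not settled. In the control Slc2a3 at 723 ± 35.5 lay above Bsg at 459 ± 13.4, and Slc16a7 at 23.1 ± 1.16 and Emb at 22.8 ± 2.15 overlapped in the middle. Slc16a1 and Slc16a3 followed without touching, and Slc2a1 was lowest at 1.52 ± 0.0841. The overlaps of Slc2a3 with Bsg, of Slc16a7 with Emb and of Slc16a7 with Slc2a1 rest on the transcript spans. With the gene-table span Slc2a3 would read 1614 and 1038 in the knockout libraries and 3735 and 3484 in the control libraries, above Bsg in each. Slc16a7 would then lie above Emb in both control libraries. At 16.4 and 7.39 it would lie above Slc2a1 in both knockout libraries.

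The other carriers of both families added few abundant genes. None of 13 further monocarboxylate carriers passed the filter on deposited RPKM. Per exon length 6 of them were tested, of which 5 rose and 1 was not called. On that level 50.8% of all genes tested were called higher and 25.0% lower. Genes of this list were named after their values were seen. Slc16a4 had the lowest p among them, with an exon-scaled level of 7.89 and 8.17 in the knockout libraries and 1.76 and 2.07 in the control libraries. Slc16a8 was under 1 in both control libraries on that level and passed through the knockout alone. The sodium-coupled lactate carrier Slc5a8 was listed at 0 in every library. Of 12 other sugar carriers 2 were tested as deposited and both fell, against 30.5% of all tested genes called lower. The fructose carrier gene Slc2a5, known from human sperm, read 5.36 and 3.16 RPKM in the knockout libraries, against 14.6 and 13.5 RPKM in the control libraries (log2 fold change -1.55, limma adjusted p = 0.0024). Slc2a8, a glucose carrier of the testis, read 2.43 and 2.08 RPKM in the knockout and 4.18 and 4.25 RPKM in the control (log2 fold change -0.68, limma adjusted p = 0.0020). Per exon length 5 were tested, of which 2 rose, 2 fell and 1 was not called, against the same 50.8% and 25.0%. Besides these falls Slc2a12 and Slc2a4, the insulin-responsive GLUT4, rose. Both were named after their values were seen, and Slc2a12 was tested only through its knockout values.

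Enzymes that make or use the transported lactate and pyruvate moved both ways. Of 13 genes tested 5 rose and 8 fell, against 43.3% of all tested genes called higher and 30.5% lower, with a median log2 fold change of -0.63 against 0.14. With an equal RPKM sum 5 of the list fell, against 1663 of all 9345 genes tested in that setting. Of the 13, 3 (Ldhd, Pdha1 and Pcx) were under 1 RPKM in both control libraries and passed the filter through the knockout alone. Per exon length none did, and 5 rose and 8 fell, against 50.8% and 25.0% of all genes on that level. Ldhb, the lactate dehydrogenase subunit that favours lactate oxidation, read 5.97 and 6.60 RPKM in the knockout libraries and 2.16 and 2.73 RPKM in the control libraries. Ldhd, which oxidises D-lactate, rose with a log2 fold change of 0.89 and Pdha1, the X-linked pyruvate dehydrogenase subunit, with 0.87. Mpc2, a subunit of the mitochondrial pyruvate carrier, fell by 0.95 on the log2 scale. Ldha and the germ cell isozyme Ldhc, named after their values were seen, fell by 1.98 and 2.10. For these 6 genes limma gave adjusted p between 0.0014 and 0.0016. Without knockout replicate 1, and again without knockout replicate 2, those 3 genes left the test and 2 genes of the list rose.

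Genes of the first steps after glucose entry also split, with 4 of 7 tested higher and 3 lower, against the same 43.3% and 30.5%. The 4 that were higher lay under 1 RPKM in both control libraries and passed the filter through the knockout alone, while 2 of those that were lower, Pfkp and Pfkfb4, passed through the control alone. Per exon length, where no tested gene of the list passed through 1 group alone, 5 of 9 were higher and 4 lower, against 50.8% and 25.0% of all genes on that level. Pfkl, the liver-type phosphofructokinase, read 2.51 and 2.85 RPKM in the knockout libraries, against 0.673 and 0.671 RPKM in the control libraries. G6pdx, the X-linked entry enzyme of the pentose phosphate pathway, rose with a log2 fold change of 0.72. Pfkm and Pfkp, the muscle and platelet types of phosphofructokinase, fell by 0.69 and 0.85. For these 4 genes limma gave adjusted p between 0.0014 and 0.0018. None of the list was called higher without knockout replicate 1 or without knockout replicate 2. Each of them then failed the filter, with 1 library past 1 RPKM. Without control replicate 1 or control replicate 2, 1 gene was called lower.

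Known regulators of the carriers rose in 6 of 7 cases tested and fell in 1, against 43.3% and 30.5% of all tested genes, with a median log2 fold change of 0.76. Txnip, which promotes the internalisation of GLUT1, read 45.3 and 47.5 RPKM in the knockout libraries, against 17.9 and 19.1 RPKM in the control libraries. Hif1a codes for the hypoxia-inducible factor subunit for which a form of the core motif is marked above. It read 1.89 and 2.30 RPKM in the knockout and 0.439 and 0.438 RPKM in the control. Akt1, a kinase of insulin signalling, rose with a log2 fold change of 1.24 and Arrdc4, a relative of Txnip, with 0.76. For these regulators limma gave adjusted p between 0.0014 and 0.0027. Hif1a and Arrdc4 were under 1 RPKM in both control libraries and passed the filter through the knockout alone. Per exon length 12 of 13 tested regulators rose and 1 fell, against 50.8% and 25.0% of all genes on that level, and 1 of the 13 passed through the knockout alone. Prkaa1, a catalytic subunit of the AMP-activated kinase, was the gene that fell, named for its count, and it passed the filter on deposited RPKM through the control alone. Its call (log2 fold change -0.22, limma adjusted p = 0.033) ended with a replicate block (adjusted p = 0.062), without knockout replicate 2 (0.065) and per exon length with an equal sum (0.30). Without either control replicate, and with an equal RPKM sum, it left the test.

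**Figure D4:**
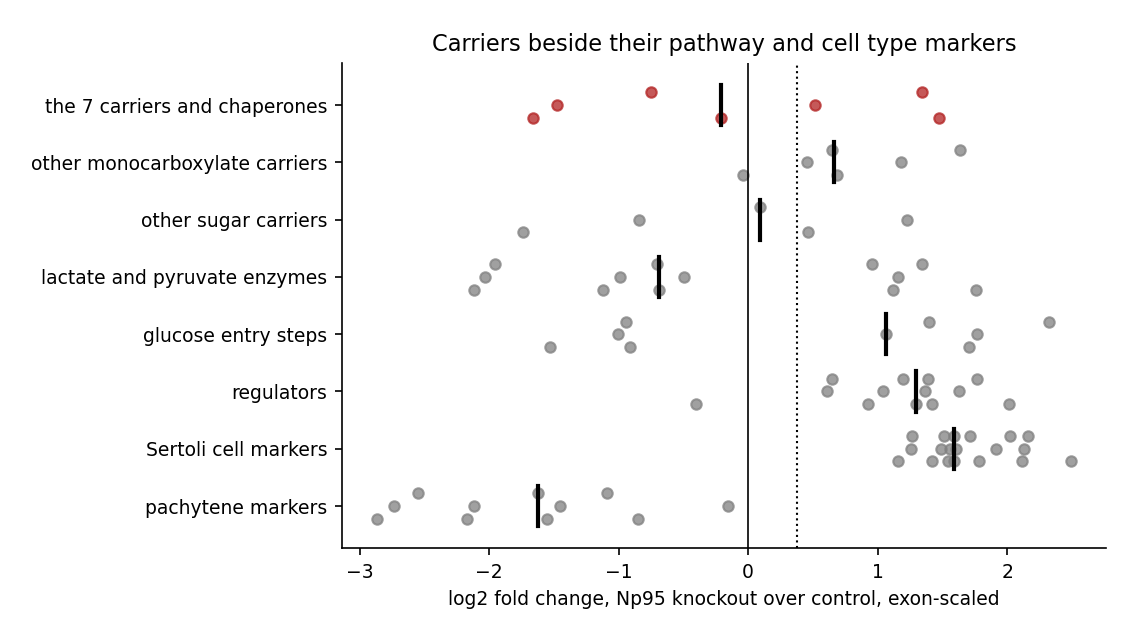
Exon-scaled log2 fold change of knockout over control for every tested gene of each list (points), with list medians (black bars) and the median of all genes tested (dotted line, 0.38). The 7 carriers and chaperones (red) spread from -1.66 to 1.47, beside medians of -1.62 for the pachytene markers and 1.59 for the Sertoli cell markers.

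Markers of other cell types moved in the same libraries. The counts of markers called stand against 43.3% of all tested genes called higher and 30.5% called lower as deposited. All 17 Sertoli cell markers tested rose, and their summed RPKM over 19 genes was 475 and 590 in the knockout libraries, against 163 and 191 in the control libraries. Sox9, the Sertoli cell transcription factor, read 8.41 and 14.8 RPKM in the knockout and 1.15 and 1.63 RPKM in the control. Amh, a hormone of immature Sertoli cells, read 11.1 and 13.5 RPKM in the knockout and 3.12 and 4.38 RPKM in the control. Clu, a secreted protein of Sertoli cells, read 85.7 and 105 RPKM in the knockout and 25.9 and 31.9 RPKM in the control. Of the 17 tested, 3 were under 1 RPKM in both control libraries and so passed the filter through the knockout alone. Of the pachytene markers all 10 tested fell, with Pgk2 at 24.9 and 15.3 RPKM in the knockout and 132 and 140 RPKM in the control. Leydig cell markers rose in 4 of 5 and macrophage markers in 3 of 3 cases tested, of which 1 Leydig cell and 2 macrophage markers passed the filter through the knockout alone. Round spermatid markers fell in 3 of 4 cases tested, and of 5 spermatogonial markers 3 rose, 1 of them tested through the knockout alone, and 2 fell. Of 7 endothelial markers 5 were under 0.1 RPKM in every library, and none was tested as deposited. In 5 of the 7 both knockout libraries lay above both control libraries and in the other 2 the groups overlapped. The share of 89.9% without overlap covers only genes that passed the filter, so it is no background for this count. Summed RPKM of the endothelial markers was 0.580 and 0.625 in the knockout libraries, against 0.446 and 0.291 in the control libraries. Cdh5, an endothelial cadherin named after its values were seen, was the one tested per exon length, through its knockout values alone, and rose (log2 fold change 0.88, limma adjusted p = 0.0037). Haemoglobin genes overlapped between groups, with Hba-a1 at 3.90 and 9.28 RPKM in the knockout and 5.27 and 5.37 RPKM in the control.

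Set against the summed Sertoli markers of the same library, the members differed from each other. Per 100 of that exon-scaled sum, Slc16a1 stood at 0.759 and 0.708 in the knockout libraries and 0.736 and 0.681 in the control libraries, ranges that overlap. Slc2a1 stood at 0.216 and 0.174 in the knockout and 0.167 and 0.155 in the control. Slc16a3 was lower on this measure, at 0.344 and 0.341 in the knockout and 0.721 and 0.623 in the control. Against the summed pachytene markers, Slc2a3 stood at 19.4 and 17.8 per 100 in the knockout libraries and 16.0 and 15.4 in the control libraries, and Slc16a7 at 0.584 and 0.375 in the knockout and 0.476 and 0.528 in the control. Bsg was higher on that measure, at 17.3 and 22.0 in the knockout and 9.62 and 10.4 in the control. These members were each set against the list that moved in their own direction. Against the other list Slc16a1, Slc16a3 and Slc2a1 were higher, and Slc16a7, Slc2a3 and Bsg lower, in both knockout libraries. Emb was lower per 100 of the Sertoli sum (0.787 and 0.636, control 2.44 and 2.38). Per 100 of the pachytene sum it was higher (1.18 and 1.67, control 0.456 and 0.538). A few abundant markers weighed most in both sums, Clu and Aard in the Sertoli sum and Ldhc in the pachytene sum. Ldhc gave 765 and 483 of 1665 and 1170 in the knockout libraries. In the control libraries it gave 2689 and 2591 of 4674 and 4525. Mean RPKM of Ldhc fell 4.23-fold and that of Hspa2 1.80-fold, so these ratios depend on the markers summed. They are descriptions, and the part of cell composition in each fold change was not tested.

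By distance between centred log2(RPKM + 1) values over the 4 libraries, the genes most like Slc16a1 were 4931406P16Rik, Tceal6 and Tnfrsf1a, at 0.0118, 0.0125 and 0.0166. Tnfrsf1a, the receptor of tumour necrosis factor, read 2.98 and 3.40 RPKM in the knockout and 0.848 and 0.910 RPKM in the control. Those most like Slc2a3 were Kcnj9, Hoxd3os1 and Spa17, at 0.0546, 0.0676 and 0.0719, of which Spa17 is a sperm autoantigen. With 4 libraries such likeness is common, since 672 genes lay within 0.25 of Slc16a1 and 182 within that distance of Slc2a3.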

How the data were processed

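Poly(A) RNA libraries of 2 knockout and 2 control samples were compared, grouped by sample title, with each column matched to its sample by name. The deposited values are RPKM, made by the authors, 1 column per library; the submitters' processing notes name Bowtie2 and build mm9, without versions, and which program and annotation were used for counting is not given in the sources used here. Multiplied by gene span, from the gene table or the matched transcripts, low values, those worth 0.3 to 10 read ends, came within 0.05 of a whole number in 56.3% to 61.0% of cases per library, and by exon length in 9.5% to 10.0%, so the deposited RPKM were scaled by span. The upper limit of 10 was set after these shares had been seen at another limit, and with limits of 5, 20 and 50 they ran from 40.1% to 64.2% by span and from 9.2% to 10.1% by exon length. Whole reads were not recovered for the rest, so no count test was run, and read pairs given are approximate.

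From 24444 rows, 27 named by dates and 29 repeats of a symbol (the row with the highest mean was kept) were left out. Genes at 1 RPKM or more in at least 2 of 4 libraries, 9099 in all, were tested on log2(RPKM + 1) with limma 3.58.1 (R 4.3.3), with a mean-variance trend, two-sided, called at a Benjamini-Hochberg adjusted p under 0.05. Fold changes on this scale understate those of low genes. Folds divide the groups' mean RPKM. The exon-scaled level multiplies RPKM by the span over the longest exon length of RefSeq-matched transcripts (GENCODE M21, GRCm38), for 23246 symbols. It assumes that these lengths hold for the authors' mm9 annotation and that every counted read is exonic. On it 13836 genes passed the same filter. The fit was tested on simulated data in which few genes changed. In these libraries most tested genes were called, so that test does not speak to the scaling between libraries. Members and gene lists were chosen with earlier results of these data known. Named genes were the members, Uhrf1, up to 4 called genes with the smallest p per list, set markers and the 3 nearest genes to the called members with the highest and lowest fold change. A listed gene is not reported here.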

Additional observations from a re-analysis of the deposited data

How the results depend on the processing

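Slc16a1 kept its direction and its call under every alternative in which it was tested. Slc16a7 and Slc2a1, untested as deposited, were called without the filter (-0.41 and 0.45), per exon length (-1.66 and 1.34) and per exon length with an equal sum, a setting chosen after seeing the data (-1.49 and 1.86). Slc16a3 was no longer called without the filter (0.43), with an equal median (0.24), with quantile normalization (0.23) and without either control library, and ran from 0.32 to 0.54 when a library was left out. With quantile normalization Slc2a3 lost its call (-0.55) and Bsg turned to 0.03. Emb turned to 0.11 with an equal RPKM sum and to 0.06 per exon length with an equal sum, and was called lower with an equal median (-0.31) and quantile normalization (-0.43). The cause was not tested. Of all genes, 3943 were higher and 2776 lower. Without the filter 6790 were higher, at 5 RPKM or more 1080 were higher and 1629 lower, 1663 were lower when RPKM sums were made equal, and per exon length 7035, or 9421 with an equal sum, were higher. Leaving out a library gave 2321 to 3115 higher and 1756 to 2871 lower. Calls that were higher made up 58.7%, against 77.3% with an equal RPKM sum and 46.3% with an equal median, where the median of all genes moved to 0.46 and -0.05. Replicate numbers are shared by the groups, but with 2 pairs they only share a number (correlation of deviations 0.109). With a replicate block 3868 genes were higher and 2721 lower, and no member changed its call (Slc16a3 adjusted p = 0.013, Bsg 0.011). The shallowest libraries, knockout replicate 2 and control replicate 1, limit Slc16a7 and Slc2a1 most.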
